A study of Mus musculus with 26 samples.

Results

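The genes described here make cholesterol or keep its synthesis in check: Hmgcs1, Idi1, Fdps, Fdft1, Sqle, Lss, Cyp51, Sc5d, Dhcr7 and Insig1. They were chosen by name, as every probe set that the array annotation gives to 1 of these 10 symbols alone, which made 25 of the 45037 probe sets tested and 10 of the 18193 genes with such a probe set. RNA of the inguinal mammary gland was read on Affymetrix mouse arrays, on which a probe set is a group of short probes for 1 transcript. Values are on a log2 scale, where a difference of 1 is a 2-fold change. Each gene is described by its brightest probe set, taken as the mean over 26 arrays, and dimmer probe sets are given for part of the comparisons. Levels of different genes are not compared with each other, since probe sets differ in how brightly they read.

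The groups were mice of an Advanced Intercross Line bred from CBA/CaH and QSi5 (AIL, 14th generation) on day 9 of lactation, which carried the code AQ (5 arrays) or AC (5 arrays), QSi5 and CBA/CaH mice on day 9 of lactation (3 arrays each), and QSi5 and CBA/CaH mice on day 12 of pregnancy (5 arrays each). QSi5 and CBA/CaH are inbred strains, and no treatment or engineered allele is named for any group. The labels do not say what AQ and AC stand for, and they give no ages. They number the arrays as replicates without saying that each came from a different animal, so p-values measure the spread between these arrays. Precision is limited by how many arrays each group has.

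Cells build cholesterol from acetyl-CoA through mevalonate, the isoprenoid diphosphates, squalene and lanosterol, in a chain of enzymes bound to or working beside the endoplasmic reticulum. Most genes of the chain are switched on by the transcription factor SREBP-2 when sterols run low, and Insig1, which is no enzyme, holds the SREBP escort protein Scap in the endoplasmic reticulum when sterols are plentiful. In the lactating gland, cholesterol leaves the cell in milk, in the membrane that wraps each fat globule, and it comes both from blood lipoproteins and from synthesis in the gland.

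SREBP binds sterol elements close to the start of its target genes, usually beside boxes for the factors NF-Y and Sp1, so the promoters of the genes were read for these letters. RefSeq (GRCm38.p6) gave windows from 250 bases before to 50 bases after a transcript start for 7 of the 10 genes (not for Fdps, Fdft1 and Sqle), with 3 windows for Dhcr7. Both strands were searched for the sterol element TCACNCCAC, the NF-Y box CCAAT and the Sp1 box GGGCGG. The sterol element stood in the window of 1 of the 7 genes, Hmgcs1, and in 1.24% of all 32851 windows of that length. An NF-Y box stood in 7 and a Sp1 box in 8 of the 9 windows, and in 37.4% and 35.7% of all windows. Of the 3 windows of Dhcr7, 1 held neither box. In Hmgcs1 the match TCACCCCAC began 137 bases before the start, with 4 NF-Y boxes, 3 Sp1 boxes and no overlap between matches. The windows of Lss (1 NF-Y and 2 Sp1 boxes) and Insig1 (1 and 3) held no match to the sterol element as spelled. A match is a description of the letters, and a window without one says nothing of the factor. The windows of Hmgcs1, the gene that fell at lactation, and of Lss and Insig1, which rose in 1 or both strains, are shown 5′ to 3′ on the + strand, with the sterol element and the NF-Y boxes (CCAAT, or ATTGG on the other strand) in capitals.
Hmgcs1, chr13:119690101-119690400: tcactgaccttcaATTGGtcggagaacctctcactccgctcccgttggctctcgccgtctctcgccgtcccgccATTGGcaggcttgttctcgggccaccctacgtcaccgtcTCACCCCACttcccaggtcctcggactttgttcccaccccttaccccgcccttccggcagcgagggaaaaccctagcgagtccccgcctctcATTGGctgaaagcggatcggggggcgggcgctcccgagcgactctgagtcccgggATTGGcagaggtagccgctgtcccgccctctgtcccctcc
Lss, chr10:76531355-76531654: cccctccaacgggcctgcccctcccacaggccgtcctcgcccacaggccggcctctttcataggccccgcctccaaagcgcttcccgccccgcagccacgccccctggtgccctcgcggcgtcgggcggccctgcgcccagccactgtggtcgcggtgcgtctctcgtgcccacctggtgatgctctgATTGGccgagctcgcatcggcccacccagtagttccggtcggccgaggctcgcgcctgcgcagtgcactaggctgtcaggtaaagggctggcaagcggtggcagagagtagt
Insig1, chr5:28071162-28071461: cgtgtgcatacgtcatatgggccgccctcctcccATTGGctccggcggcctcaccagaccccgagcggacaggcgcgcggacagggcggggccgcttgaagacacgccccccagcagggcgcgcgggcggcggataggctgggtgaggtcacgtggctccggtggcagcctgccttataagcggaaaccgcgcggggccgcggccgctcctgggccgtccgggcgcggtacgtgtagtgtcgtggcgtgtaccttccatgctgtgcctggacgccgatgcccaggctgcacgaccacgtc

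The arrays varied in more than stage and line. Luminal and secretory markers of the gland were present on all arrays (6 luminal markers at 9.11 to 13.1 and 4 secretory markers at 10.7 to 15.1). On 8 of 26 arrays, markers of fat, muscle or B cells, or the 3′ minus 5′ value of Gapdh (higher where probes far from the RNA's 3′ end read weakly), lay over 1 log2 unit above the median of the others of their group. Of these apart-standing arrays, the pregnancy QSi5 array 4 had a Gapdh value of 6.50 (others of its group 1.20 to 1.74), and the pregnancy CBA/CaH array 5 had a brown fat marker median of 5.51 above the mean of all arrays (others -0.98 to 3.53). Several genes described here read lowest in their group on that QSi5 array or highest on that CBA/CaH array. Results that rest on these arrays are given without both too. The pair was picked after the data were seen, so calls gained by leaving it out are description only. The arrays did not share 1 distribution. Their 90th percentile was 8.28 to 8.38 in AIL AQ, 8.29 to 8.48 in AIL AC, 7.97 to 8.11 in lactating QSi5, 7.96 to 8.12 in lactating CBA/CaH, 8.52 to 8.93 in pregnant QSi5 and 8.54 to 8.88 in pregnant CBA/CaH mice. Over all probe sets the median difference between the stages was 0.19 in QSi5 and 0.17 in CBA/CaH.

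The first comparison asked how the chain differs between a milk-secreting gland and a gland in pregnancy. In the middle of the chain, Fdps, Fdft1 and Lss rose at lactation in both strains. At its entry Hmgcs1 fell in both. Insig1 rose in QSi5. Of the 10 genes, 4 rose and 1 fell in QSi5, where limma called 59.1% of all probe sets (adjusted p under 0.05), and 3 rose and 1 fell in CBA/CaH, where it called 53% of all. The share of these genes that changed was therefore near or under the background. Their median difference was 0.54 in QSi5 and 0.47 in CBA/CaH, against 0.19 and 0.17 over all probe sets, dim ones included.

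**Figure D1:**
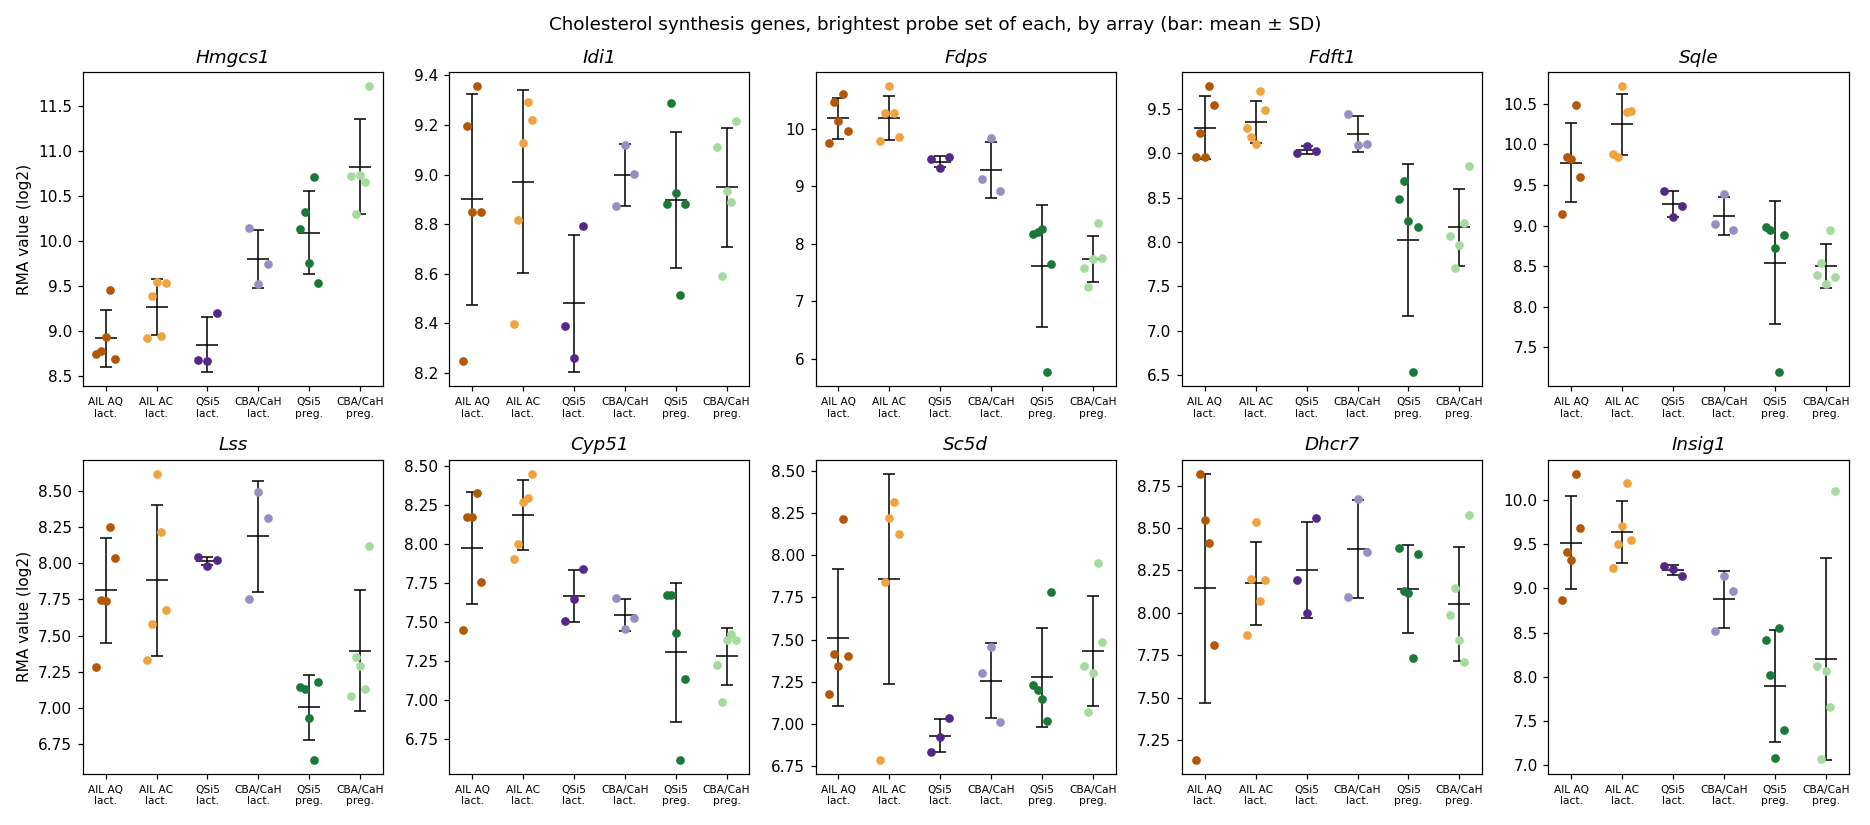
RMA values (log2) of the brightest probe set of each gene on every array, with 1 point per array and the mean ± SD of each group as bars. Groups run from lactating AIL, QSi5 and CBA/CaH mice to pregnant QSi5 and CBA/CaH mice. Hmgcs1 lies lower and Fdps and Fdft1 higher on all parental lactation arrays than on the pregnancy arrays of the same strain.

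Hmgcs1 encodes the cytosolic synthase that joins acetyl units into HMG-CoA at the entry of the chain. It read 8.68, 8.67 and 9.20 on the lactation QSi5 arrays, against 10.13, 10.32, 9.76, 10.71 and 9.54 on the pregnancy QSi5 arrays. In CBA/CaH it read 10.14, 9.52 and 9.74 at lactation, against 10.72, 10.30, 10.73, 10.66 and 11.72 at pregnancy. Within each strain every lactation array lay below every pregnancy array, and the level was 2.36-fold lower in QSi5 and 2.03-fold lower in CBA/CaH. The difference was -1.24 (SE 0.30, adjusted p = 0.00227) in QSi5 and -1.02 (SE 0.30, adjusted p = 0.00933) in CBA/CaH. Of its 5 probe sets, 4 fell in QSi5 and 5 in CBA/CaH. Quantile normalization of the deposited values ended both calls, with -0.49 (adjusted p = 0.227) and -0.41 (adjusted p = 0.319). Without the lactation CBA/CaH array 2 the CBA/CaH call was lost at -0.88 (adjusted p = 0.0501). Hmgcs1 read highest of its group on the pregnancy QSi5 array 4 and on the pregnancy CBA/CaH array 5. Without both, the difference was -1.09 in QSi5 and -0.80 in CBA/CaH (adjusted p = 0.000518 and 0.00556). On that QSi5 array its probe sets 1433445_x_at, 1433444_at and 1433446_at read lowest of their group.

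Fdps makes farnesyl diphosphate, the branch point between sterols and the isoprenoids that anchor proteins to membranes. It read 9.46, 9.32 and 9.50 on the lactation QSi5 arrays, against 8.16, 8.20, 8.26, 5.77 and 7.64 on the pregnancy QSi5 arrays. In CBA/CaH it read 9.12, 9.84 and 8.91 at lactation, against 7.57, 7.25, 7.73, 8.36 and 7.75 at pregnancy. The stages did not overlap in either strain, and the lowest value of all 26 arrays was on the pregnancy QSi5 array 4. Fdps was 3.53-fold higher at lactation in QSi5 and 2.94-fold higher in CBA/CaH, the highest stage folds of the 10 genes. The difference was 1.82 (SE 0.45, adjusted p = 0.00275) in QSi5 and 1.55 (SE 0.45, adjusted p = 0.00885) in CBA/CaH, where leaving out the lactation array 2 gave 1.28 (adjusted p = 0.0543). Without the pregnancy QSi5 array 4 and CBA/CaH array 5 it was 1.36 and 1.56 (adjusted p = 0.000410 and 0.000199). A dim second probe set rose as well, by 1.00 and 0.67. Its mean level was 3.64, near the lowest value of the data (2.34).

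Fdft1, squalene synthase, takes farnesyl diphosphate into the sterol branch. Its values were 9.00, 9.08 and 9.03 on the lactation QSi5 arrays, against 8.48, 8.68, 8.23, 6.53 and 8.17 on the pregnancy QSi5 arrays. In CBA/CaH they were 9.45, 9.10 and 9.10 at lactation, against 8.07, 7.71, 7.96, 8.21 and 8.86 at pregnancy. Every lactation array again lay above every pregnancy array of its strain. The rise was 1.02 (SE 0.37, adjusted p = 0.0266) in QSi5 and 1.05 (SE 0.37, adjusted p = 0.0255) in CBA/CaH. Setting array medians equal ended both calls (adjusted p = 0.0946 and 0.0725). In QSi5 the call was lost without the lactation array 1, 2 or 3 (adjusted p = 0.0619 to 0.0706), and dropping the apart-standing arrays gave 0.43 (adjusted p = 0.0777). Without the pregnancy QSi5 array 4 and CBA/CaH array 5 it was 0.65 (adjusted p = 0.00233) in QSi5 and 1.22 (adjusted p = 2.26e-05) in CBA/CaH. In CBA/CaH it was lost without the pregnancy array 2 or the lactation array 1, 2 or 3 (adjusted p = 0.0515 to 0.0886).

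Lss, lanosterol synthase, closes the rings of the sterol skeleton. It read 8.04, 7.98 and 8.02 on the lactation QSi5 arrays, against 7.14, 7.13, 6.93, 6.64 and 7.18 on the pregnancy QSi5 arrays. In CBA/CaH it read 7.75, 8.49 and 8.32 at lactation, against 7.08, 7.35, 7.29, 7.13 and 8.12 at pregnancy. The QSi5 stages were apart, while in CBA/CaH the pregnancy array 5 lay above the lowest lactation array. Lss was 2.02-fold higher at lactation in QSi5 and 1.73-fold higher in CBA/CaH, a difference of 1.01 (SE 0.22, adjusted p = 0.00114) and of 0.79 (SE 0.22, adjusted p = 0.00722). The stages of CBA/CaH differed by 0.97 without both doubted arrays. Its other probe sets are dim and were not called, but 1426913_at leaned the other way. It averaged 4.13 in lactating and 4.91 in pregnant QSi5 mice, and 4.33 and 5.20 in CBA/CaH. The probe set 1420014_at averaged 4.70 and 4.76 in QSi5, and 4.92 and 4.60 in CBA/CaH. The mean over all 3 probe sets of Lss gave 0.06 (adjusted p = 0.776) and 0.08 (adjusted p = 0.697).

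Insig1 read 9.26, 9.22 and 9.15 on the lactation QSi5 arrays, against 8.42, 8.02, 7.08, 8.55 and 7.40 on the pregnancy QSi5 arrays. In CBA/CaH it read 8.51, 9.14 and 8.97 at lactation, against 8.13, 7.06, 8.07, 7.65 and 10.10 at pregnancy. The pregnancy CBA/CaH array 5 was the highest of all parental arrays. Insig1 rose 2.49-fold in QSi5, by 1.31 (SE 0.50, adjusted p = 0.0335), and its CBA/CaH difference of 0.68 (SE 0.50, adjusted p = 0.264) was not called. Leaving out that array gave 1.15 in CBA/CaH, which was called (adjusted p = 0.0106). The QSi5 call was lost under equal array medians (1.09, adjusted p = 0.0761) and without the pregnancy array 3 or 5 or the lactation array 1, 2 or 3 (adjusted p = 0.0639 to 0.084). Without the pregnancy QSi5 array 4 and CBA/CaH array 5 the QSi5 difference was 1.48 (adjusted p = 0.000795).

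The remaining 5 genes were not called in either strain. Sqle, squalene epoxidase, ran at 9.11 to 9.43 on the lactation QSi5 arrays, against 7.20 to 8.98 on the pregnancy QSi5 arrays, and at 8.94 to 9.39 in lactating CBA/CaH, against 8.28 to 8.95 in pregnant CBA/CaH mice. Its difference was 0.72 (SE 0.32, adjusted p = 0.0634) in QSi5 and 0.62 (SE 0.32, adjusted p = 0.113) in CBA/CaH. In QSi5 no array overlapped between the stages, and the call was made without the pregnancy array 1 (adjusted p = 0.0465) or 2 (adjusted p = 0.0490). The lowest Sqle value was on the pregnancy QSi5 array 4. Leaving it out with the pregnancy CBA/CaH array 5 gave 0.38 in QSi5 (adjusted p = 0.0542). In CBA/CaH it gave 0.58 (SE 0.16, adjusted p = 0.00826), a call that came with a lower SE and not with a larger difference. Cyp51, which removes a methyl group from lanosterol, differed by 0.36 (SE 0.20, adjusted p = 0.135) in QSi5 and 0.27 (SE 0.20, adjusted p = 0.279) in CBA/CaH. Idi1, which interconverts the isoprenoid building blocks, differed by -0.42 (SE 0.18, adjusted p = 0.0529) in QSi5 and 0.05 (SE 0.18, adjusted p = 0.831) in CBA/CaH. Without the pregnancy QSi5 array 4 or the lactation QSi5 array 3 the QSi5 difference of Idi1 was called (-0.51, adjusted p = 0.0144, and -0.57, adjusted p = 0.0214). Over its 19 alternatives it ran from -0.64 to 0.35, with 6 calls. The positive end came with quantile normalization, which also called Idi1 higher at lactation in CBA/CaH (0.70, adjusted p = 0.00427). Sc5d, a sterol desaturase, differed by -0.35 (SE 0.19, adjusted p = 0.135) in QSi5 and -0.17 (SE 0.19, adjusted p = 0.457) in CBA/CaH. Dhcr7, the reductase of the last step, differed by 0.11 (SE 0.21, adjusted p = 0.667) in QSi5 and 0.32 (SE 0.21, adjusted p = 0.196) in CBA/CaH. The 95% interval of the Dhcr7 difference was -0.33 to 0.55 in QSi5 and -0.12 to 0.76 in CBA/CaH. These arrays leave room for a change in either direction within those bounds. Without both doubted arrays the Dhcr7 difference in CBA/CaH was 0.46 and was called (adjusted p = 0.0322). Dhcr7 read highest of its group on the pregnancy CBA/CaH array 5, so leaving that array out raises the difference. Of 19 alternatives, 2 called Dhcr7 in CBA/CaH.

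**Figure D2:**
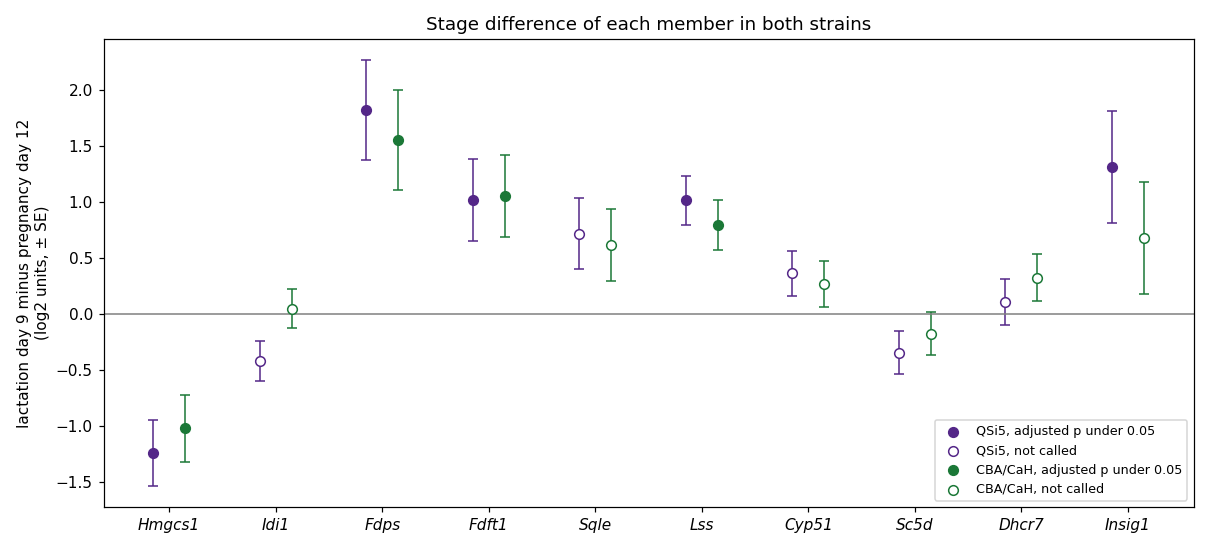
Difference between lactation day 9 and pregnancy day 12 (log2 units, ± SE) for each gene, in QSi5 and CBA/CaH. Filled points have an adjusted p under 0.05. Fdps, at 1.82 and 1.55, is the highest and Hmgcs1, at -1.24 and -1.02, the lowest.

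The size of the shift depended on how the arrays were scaled. With quantile normalization, which gives all arrays the same distribution, 7 of the 10 genes rose and 0 fell in each strain by limma, and their median difference was 1.23 in QSi5 and 1.12 in CBA/CaH, while that of all probe sets was 0.08 and 0.09. Sqle then rose by 1.45 in QSi5 and 1.28 in CBA/CaH, Cyp51 by 1.01 and 0.82, and Dhcr7 by 0.86 and 0.96. With array medians set equal, 2 rose and 3 fell in QSi5, 2 rose and 1 fell in CBA/CaH, and the median was 0.32 and 0.30. Over all probe sets, 60.9% of the calls in QSi5 and 61.0% in CBA/CaH were higher at lactation, against 43.2% and 45% with array medians set equal. Fdps rose and Hmgcs1 differed downward under each of these scalings. The balance of calls over the whole array also turned once dim probe sets (mean under 5) were dropped. In QSi5 it was then 6699 higher and 9079 lower at lactation, and in CBA/CaH 6155 and 8218. With the apart-standing arrays dropped, 4 genes were called in QSi5 and 7 in CBA/CaH.

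Probe sets of 1 gene did not always move together. Of the 25 probe sets, 9 rose and 5 fell in QSi5, and 7 rose and 6 fell in CBA/CaH. Sc5d differed most in this way. Its probe set 1434520_at, with a mean level of 6.60, ran at 5.30 to 5.53 on the lactation QSi5 arrays, against 6.25 to 8.03 on the pregnancy QSi5 arrays, and at 5.12 to 5.86 in lactating, against 6.95 to 7.94 in pregnant CBA/CaH mice. That probe set fell by 1.87 in QSi5 and fell by 1.91 in CBA/CaH (adjusted p = 0.000141 and 0.000163), while 1424709_at rose by 0.66 and 0.62. The mean of its 3 probe sets fell by 0.52 in QSi5 (adjusted p = 0.00539) and fell by 0.49 in CBA/CaH (adjusted p = 0.00892). For Fdft1, 3 of 4 probe sets rose in each strain, and 1438322_x_at differed by 0.01 and -0.01. The Cyp51 probe set 1422534_at averaged 4.46 in lactating and 4.04 in pregnant QSi5 mice, and 4.42 and 4.13 in CBA/CaH. Its probe set 1422533_at averaged 5.98 and 6.11 in QSi5, and 6.10 and 5.89 in CBA/CaH. The Idi1 probe set 1423804_a_at averaged 7.42 and 7.97 in QSi5, and 7.83 and 7.85 in CBA/CaH. The probe sets of Sc5d thus give no single direction for the gene.

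**Figure D3:**
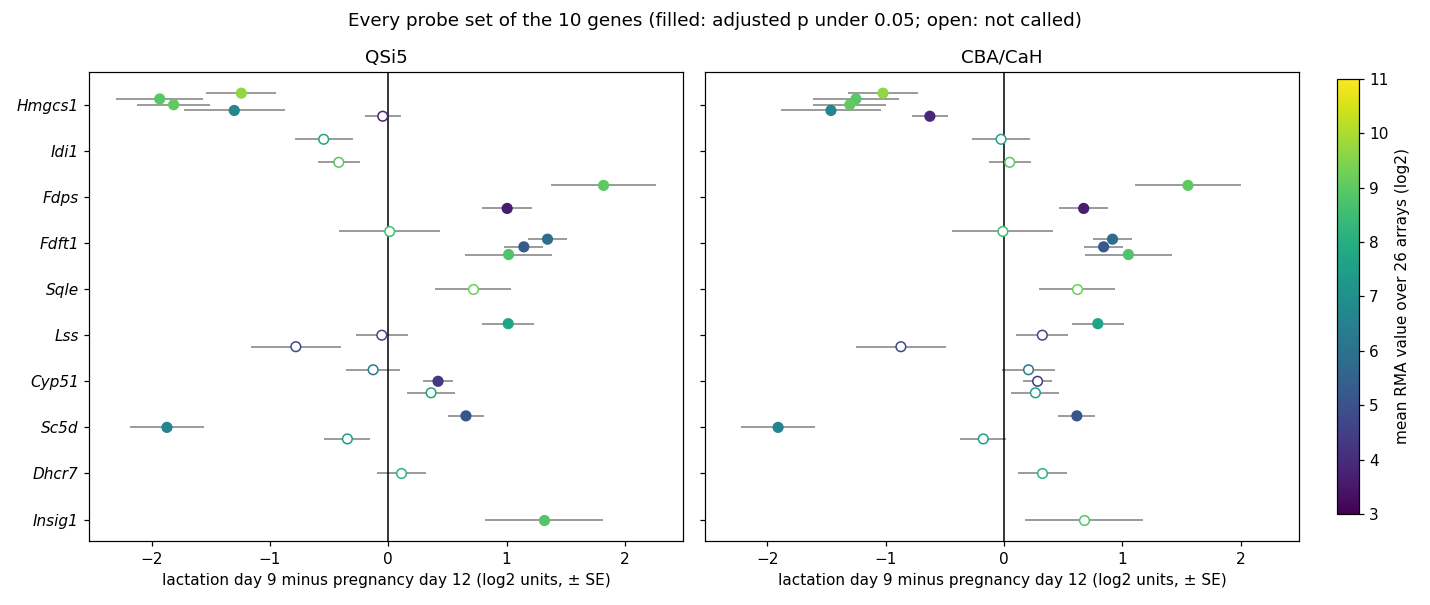
Difference between lactation day 9 and pregnancy day 12 (log2 units, ± SE) for all 25 probe sets, by gene, in QSi5 and CBA/CaH. Colour gives the mean level and filled points have an adjusted p under 0.05. The probe sets of Hmgcs1 lie at or left of 0, and those of Sc5d on both sides of it.

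Other genes of sterol metabolism were set beside them, as lists chosen by function. Of 12 other enzymes of the chain, 9 were analysed here, of which 4 rose and 2 fell in QSi5 and 5 rose and 1 fell in CBA/CaH. Of all probe sets 59.1% and 53% were called, and 35.9% and 32.3% were called higher. Tm7sf2 and Lbr, which reduce the same sterol double bond, moved apart. Tm7sf2 rose by 1.66 in QSi5 and 1.34 in CBA/CaH (adjusted p = 0.000451 and 0.00275), and Lbr, also a lamin-binding protein of the nuclear envelope, fell by 2.10 and fell by 2.27 (adjusted p = 1.78e-06 and 1.3e-06). Ebp, a sterol isomerase, rose by 1.14 and 1.19 (adjusted p = 0.00229 and 0.00216). Mvd, which makes the isoprenoid unit from mevalonate diphosphate, differed by 0.16 (SE 0.23, adjusted p = 0.565) and -0.04 (SE 0.23, adjusted p = 0.887), and Msmo1, a sterol methyl oxidase, by 0.16 (SE 0.36, adjusted p = 0.711) and 0.57 (SE 0.36, adjusted p = 0.187). The median of this list was 0.32 in QSi5 and 0.65 in CBA/CaH.

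Sterol sensing was followed in a list that leaves out Insig1, described above. Of its 12 genes, 9 were analysed here, of which 0 rose and 5 fell in QSi5 and 0 rose and 4 fell in CBA/CaH by limma (at an unadjusted p under 0.05, 5 and 6 passed). Of all probe sets, 23.1% and 20.7% were called lower, and the shares of the list called in either direction were near those of all probe sets (59.1% and 53%). Srebf2, which encodes SREBP-2, differed by -0.56 (SE 0.17, adjusted p = 0.0107) in QSi5 and -0.37 (SE 0.17, adjusted p = 0.0764) in CBA/CaH, called in the first. Srebf1, the relative that drives fatty acid synthesis, fell by 1.27 and fell by 1.15 (adjusted p = 0.00503 and 0.0107). Mbtps1, the protease that makes the first cut in SREBP, fell by 1.32 and fell by 1.14 (adjusted p = 0.000258 and 0.00112), and Mylip, which degrades lipoprotein receptors, fell by 0.75 and fell by 1.37 (adjusted p = 0.0403 and 0.00142). Insig2, the second Insig protein, differed by -0.10 (SE 0.22, adjusted p = 0.716) and 0.33 (SE 0.22, adjusted p = 0.224). The carrier Stard4 differed by -0.16 (SE 0.59, adjusted p = 0.825) and -0.16 (SE 0.59, adjusted p = 0.831), and Nr1h3, an oxysterol receptor, by 0.26 (SE 0.24, adjusted p = 0.358) and 0.02 (SE 0.24, adjusted p = 0.949).

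Of 12 genes for sterol uptake, storage and export, 11 were analysed here, of which 0 rose and 4 fell in QSi5, where 59.1% of all probe sets were called and 23.1% called lower, and 2 rose and 5 fell in CBA/CaH, where 53% were called and 20.7% called lower. The exporter Abca1 fell by 2.84 in QSi5 and fell by 2.76 in CBA/CaH (adjusted p = 9.83e-07 and 1.97e-06). The lipoprotein Apoe fell by 2.07 and fell by 2.63 (adjusted p = 0.000849 and 0.000163), and the receptor Lrp1 fell by 2.22 and fell by 1.75 (adjusted p = 0.000429 and 0.00313). The lysosomal carrier Npc2 differed by 0.38 (SE 0.19, adjusted p = 0.0970) and 0.08 (SE 0.19, adjusted p = 0.731), and Osbp, a sterol transfer protein, by -0.23 (SE 0.23, adjusted p = 0.399) and -0.41 (SE 0.23, adjusted p = 0.142). With the apart-standing arrays dropped, 8 of the 11 were called in QSi5. Markers of cell types moved too, most of them downward at lactation. Of 6 luminal markers, 5 fell in QSi5 and 4 in CBA/CaH, and 5 of 6 myoepithelial markers fell in each strain. Of 5 fibroblast markers 4 fell in each strain, as did 3 of 5 endothelial and 2 of 5 macrophage markers. Of 6 white adipocyte markers, 3 fell in QSi5 and 5 in CBA/CaH, and of 5 brown adipocyte markers 0 and 3 fell and 1 rose in each strain. Upward moved 4 of 4 secretory markers in QSi5 and 3 of 4 in CBA/CaH, and 5 of 5 B and plasma cell markers in QSi5 and 1 of 5 in CBA/CaH, while 0 of 7 muscle markers was called. The fibroblast marker median was -1.71 to -0.84 in lactating QSi5 and -1.43 to -1.27 in lactating CBA/CaH, against 0.33 to 1.34 in pregnant QSi5 and -0.24 to 2.13 in pregnant CBA/CaH mice. The part of such markers in these results was not tested. In whole gland, fewer cells of a type and less RNA per cell cannot be told apart.

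Most genes of the isoprenoid branch, which leads from farnesyl diphosphate to protein anchors, dolichol and ubiquinone, fell. Of 7 genes, 6 were analysed here, of which 0 rose and 4 fell in QSi5 and 0 rose and 5 fell in CBA/CaH by limma. Over all probe sets 23.1% and 20.7% were called lower, of 59.1% and 53% called. Dhdds, which makes the dolichol chain, fell by 1.78 in QSi5 and fell by 1.24 in CBA/CaH (adjusted p = 2.47e-06 and 9.14e-05). Fntb, a subunit of protein farnesyltransferase, fell by 1.57 and fell by 0.97 (adjusted p = 1.81e-07 and 2.83e-05), and Coq2, of ubiquinone synthesis, fell by 1.13 and fell by 1.11 (adjusted p = 0.000108 and 0.000179). Pggt1b, of another prenyltransferase, differed by 0.48 (SE 0.44, adjusted p = 0.360) and 0.18 (SE 0.44, adjusted p = 0.741). The list median was -1.06 in QSi5 and -1.01 in CBA/CaH, while Fdps itself, which feeds the branch, rose. With quantile normalization 2 of the 6 were called in CBA/CaH.

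**Figure D4:**
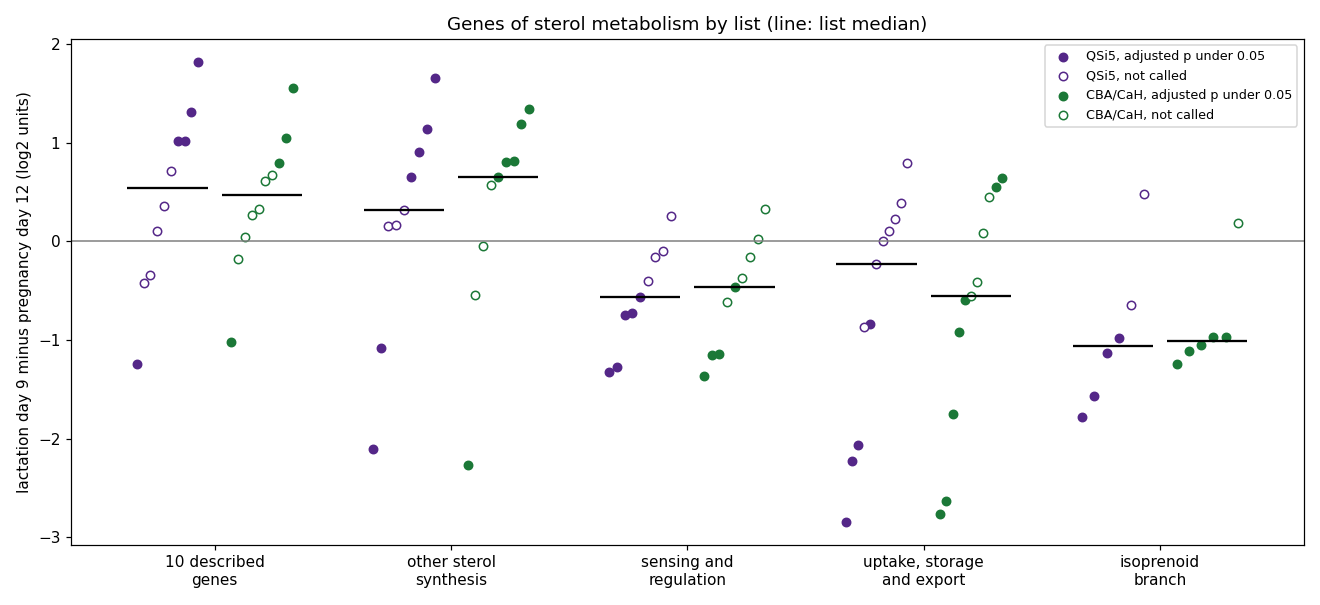
Difference between lactation day 9 and pregnancy day 12 (log2 units) of each gene of 5 lists in QSi5 and CBA/CaH, with the list median as a line. Filled points have an adjusted p under 0.05. The isoprenoid branch has medians of -1.06 and -1.01, and the 10 described genes have medians of 0.54 and 0.47.

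The second comparison set QSi5 against CBA/CaH. None of the 10 genes was called by limma on day 9 of lactation (2 at an unadjusted p under 0.05), where 0.289% of all probe sets were called. None was called on day 12 of pregnancy either (1 at an unadjusted p under 0.05), where 1.09% were. Hmgcs1 had the lowest difference at both stages. On the lactation arrays it was 1.93-fold lower in QSi5, without overlap, a difference of -0.95 (SE 0.33, adjusted p = 0.616). At pregnancy the difference was -0.73 (SE 0.26, adjusted p = 0.330), and the groups overlapped. Idi1 read 8.39, 8.26 and 8.79 on the lactation QSi5 arrays, against 8.87, 9.12 and 9.00 on the lactation CBA/CaH arrays. It too was lower in QSi5 at lactation without overlap, and its difference of -0.52 (SE 0.20, adjusted p = 0.732) was not called. For the 8 other genes the adjusted p was 1 at lactation and 0.617 to 0.991 at pregnancy. Of these 8, Fdft1 was also lower in QSi5 at lactation without overlap (9.00 to 9.08, against 9.10 to 9.45). Insig1 was higher in QSi5 without overlap (9.15 to 9.26, against 8.51 to 9.14). The share of all probe sets without overlap was not counted, so these gaps are description only. The 95% interval for Fdps at lactation, -0.92 to 1.20, leaves room for differences as large as several called between the stages.

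The stage difference itself was compared between the strains by an interaction term. None of the 10 genes was called by limma (0 also at an unadjusted p under 0.05), where 0.104% of all probe sets were called. The difference of differences, QSi5 minus CBA/CaH, was 0.64 (SE 0.71, adjusted p = 0.996) for Insig1 and -0.47 (SE 0.25, adjusted p = 0.980) for Idi1, the highest and lowest. Without the pregnancy QSi5 array 4 and CBA/CaH array 5 it was 0.33 (adjusted p = 0.883) for Insig1 and -0.63 (adjusted p = 0.524) for Idi1. Over 26 alternatives the Insig1 value ran from -0.30, without all the apart-standing arrays, to 0.92. The call of Insig1 in QSi5 and not in CBA/CaH therefore does not show that the strains differ.

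The third comparison set the intercross mice against each parental strain at the same stage. Fdps, Sqle and Cyp51 were higher in AIL mice than in both QSi5 and CBA/CaH. Of the 10 genes, 4 were higher and 0 lower in AIL than in QSi5, where limma called 36% of all probe sets, and 4 were higher and 1 lower in AIL than in CBA/CaH, where it called 32%. The share called stood near the background against QSi5 and above it against CBA/CaH, with no test of these counts. Of all probe sets, 15.7% were called higher in AIL than in QSi5 and 14.7% higher than in CBA/CaH. The median difference was 0.39 against QSi5 and 0.27 against CBA/CaH, beside -0.08 and -0.07 over all probe sets, dim ones included. Leaving out dim probe sets (mean under 5) turned the balance of limma calls against QSi5. It was then 6590 higher and 4100 lower in AIL, where all probe sets had given 7085 and 9135. The comparisons with QSi5 and with CBA/CaH share the AIL arrays.

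Fdps read 9.74, 10.46, 10.13, 10.60 and 9.96 in AIL AQ and 9.79, 10.28, 10.74, 10.26 and 9.84 in AIL AC mice, against 9.32 to 9.50 in lactating QSi5 and 8.91 to 9.84 in lactating CBA/CaH mice. All AIL arrays lay above all QSi5 arrays, and the CBA/CaH array 2 lay within the AIL range. The difference was 0.75 (SE 0.21, adjusted p = 0.00936) against QSi5 and 0.89 (SE 0.21, adjusted p = 0.00337) against CBA/CaH, or 0.11 (adjusted p = 0.508) and 0.23 (adjusted p = 0.172) as the mean of its 2 probe sets. The dim Fdps probe set went the other way, with a mean of 3.62 in AIL AQ and 3.72 in AIL AC mice. It averaged 4.20 in lactating QSi5 and 4.10 in lactating CBA/CaH mice. Sqle read 9.15, 9.84, 9.81, 10.48 and 9.59 in AIL AQ and 9.88, 9.84, 10.71, 10.39 and 10.41 in AIL AC mice, against 9.11 to 9.43 in lactating QSi5 and 8.94 to 9.39 in lactating CBA/CaH mice. Only the lowest AIL AQ array lay within the parental range. Sqle was 1.68-fold higher than in QSi5 (difference 0.75, SE 0.21, adjusted p = 0.0111), which ended without the QSi5 array 2 (0.67, adjusted p = 0.0628), and 1.86-fold higher than in CBA/CaH, by 0.89 (SE 0.21, adjusted p = 0.00400).

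Cyp51 read 7.45, 8.17, 8.17, 8.33 and 7.76 in AIL AQ and 7.90, 8.00, 8.27, 8.30 and 8.45 in AIL AC mice, against 7.51 to 7.84 in lactating QSi5 and 7.46 to 7.66 in lactating CBA/CaH mice. The groups overlapped at the low end of the AIL arrays. The difference was 0.41 (SE 0.16, adjusted p = 0.0484) against QSi5 and 0.53 (SE 0.16, adjusted p = 0.0151) against CBA/CaH, called in 9 and 19 of 24 alternatives. The QSi5 call was lost without the QSi5 array 1 or 2, the AIL AC array 3, 4 or 5 or the AIL AQ array 2, 3 or 4 (adjusted p = 0.0660 to 0.201), and the CBA/CaH call without the CBA/CaH array 2 or 3 (adjusted p = 0.0656 and 0.0598). Insig1 read 8.87, 9.41, 9.33, 10.30 and 9.69 in AIL AQ and 9.24, 9.50, 9.70, 10.20 and 9.55 in AIL AC mice, against 9.15 to 9.26 in lactating QSi5 and 8.51 to 9.14 in lactating CBA/CaH mice. The AIL AQ array 1 lay within the CBA/CaH range. Insig1 was higher than in CBA/CaH by 0.70 (SE 0.22, adjusted p = 0.0219), a call lost without the CBA/CaH array 1 (0.52, adjusted p = 0.139) or 3 (0.75, adjusted p = 0.0557), and differed by 0.37 (SE 0.22, adjusted p = 0.203) from QSi5.

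Sc5d read 7.18, 7.41, 7.35, 8.22 and 7.41 in AIL AQ and 6.79, 7.84, 8.22, 8.31 and 8.13 in AIL AC mice, against 6.84 to 7.04 in lactating QSi5 and 7.01 to 7.45 in lactating CBA/CaH mice. The spread within AIL AC was wide, with array 1 lowest of all. Sc5d was higher than in QSi5 by 0.75 (SE 0.25, adjusted p = 0.0245). This call ended without the QSi5 array 1 (adjusted p = 0.0931) or 2 (adjusted p = 0.0763). The difference from CBA/CaH was 0.43 (SE 0.25, adjusted p = 0.198), called without the AIL AC array 1 (0.56, adjusted p = 0.0195). Its probe set 1434520_at ran at 6.43 to 6.58 in AIL AQ and 6.51 to 6.67 in AIL AC mice, against 5.30 to 5.53 in lactating QSi5 and 5.12 to 5.86 in lactating CBA/CaH mice. That probe set was higher in AIL without overlap, by 1.11 (SE 0.12, adjusted p = 1.98e-06) and 1.02 (SE 0.12, adjusted p = 5.29e-06), while 1424709_at was lower than in CBA/CaH, with a difference of -0.47 (SE 0.12, adjusted p = 0.00464).

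Hmgcs1 read 8.74, 8.77, 8.93, 9.46 and 8.69 in AIL AQ and 8.92, 9.39, 9.54, 8.94 and 9.54 in AIL AC mice, against 8.67 to 9.20 in lactating QSi5 and 9.52 to 10.14 in lactating CBA/CaH mice. The AIL arrays overlapped the QSi5 range and just reached the lowest CBA/CaH array. Its level was 1.63-fold lower than in CBA/CaH, a difference of -0.71 (SE 0.18, adjusted p = 0.00685), and differed from QSi5 by 0.24 (SE 0.18, adjusted p = 0.313). The dimmer probe sets gave another picture. Against QSi5, 1433444_at was higher by 1.20 (SE 0.18, adjusted p = 7.76e-05), and 1433446_at was higher by 1.37 (SE 0.21, adjusted p = 0.000110). Against CBA/CaH, 1433446_at was higher too, by 1.29 (SE 0.21, adjusted p = 0.000197). The mean over all 5 probe sets was 0.74 higher than in QSi5 (adjusted p = 0.000958) and differed by 0.12 from CBA/CaH (adjusted p = 0.532), so the direction of Hmgcs1 between AIL and CBA/CaH turned with the choice of probe set. The CBA/CaH call was also lost without the CBA/CaH array 1 (-0.54, adjusted p = 0.0622).

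Among the genes that rose at lactation, Fdft1 and Lss were not called between AIL and either parent. Fdft1 differed by 0.28 (SE 0.16, adjusted p = 0.175) from QSi5 and 0.10 (SE 0.16, adjusted p = 0.651) from CBA/CaH, and Lss by -0.17 (SE 0.23, adjusted p = 0.591) and -0.34 (SE 0.23, adjusted p = 0.270). The Fdft1 probe set 1438918_at, which rose with lactation, was lower in AIL than in both parents, with differences of -0.70 (SE 0.10, adjusted p = 5.26e-05) and -0.35 (SE 0.10, adjusted p = 0.0134). Idi1 differed by 0.46 (SE 0.20, adjusted p = 0.0842) and -0.06 (SE 0.20, adjusted p = 0.844), and its QSi5 difference was called without the AIL AC array 1 (0.53, adjusted p = 0.0321) or the AIL AQ array 1 (0.54, adjusted p = 0.0247). Dhcr7 differed by -0.09 (SE 0.25, adjusted p = 0.800) and -0.22 (SE 0.25, adjusted p = 0.538). Dhcr7 had the widest spread of the 10 genes within AIL AQ, with 7.13, 8.82, 8.55, 8.41 and 7.81.

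**Figure D5:**
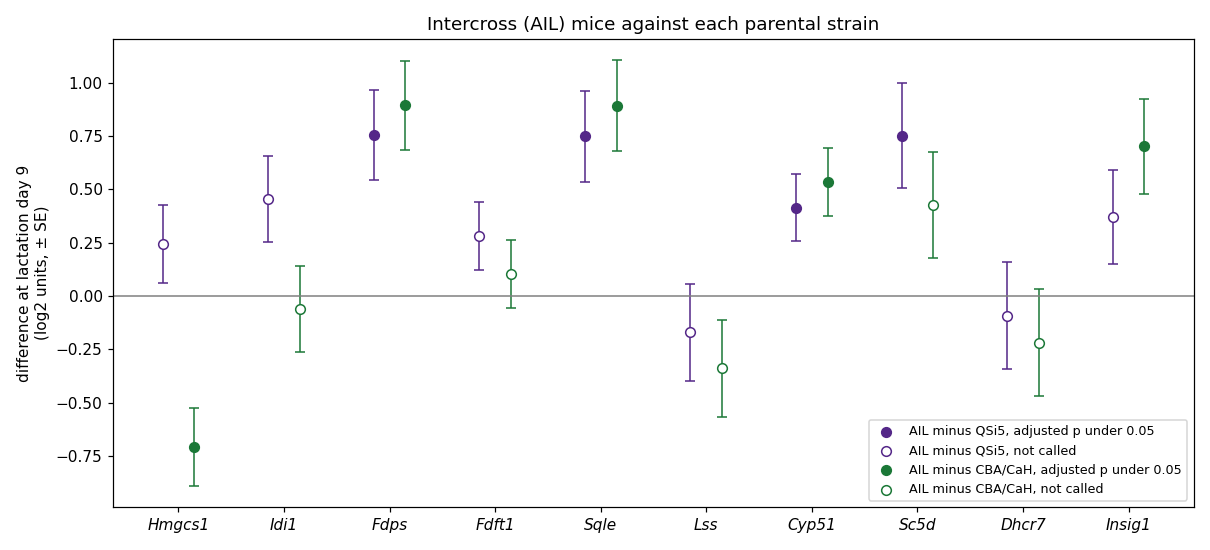
Difference between AIL and QSi5 or CBA/CaH mice on day 9 of lactation (log2 units, ± SE) for each gene. Filled points have an adjusted p under 0.05. Fdps and Sqle are higher by 0.75 to 0.89 in both comparisons, and Hmgcs1, by its brightest probe set, differs by -0.71 from CBA/CaH.

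Other measures separated the AIL arrays from the parental arrays too. The Gapdh 3′ minus 5′ value was 0.54 to 0.71 in AIL AQ and 0.57 to 0.80 in AIL AC, against 1.48 to 1.62 in lactating QSi5 and 1.12 to 2.02 in lactating CBA/CaH mice, so this value and the line cannot be told apart. With it as a covariate, none of the 10 genes was called against QSi5 or CBA/CaH by limma, and Fdps differed by -0.14 (adjusted p = 0.889) and -0.024 (adjusted p = 0.986). Of 5 fibroblast markers, 5 were higher in AIL than in each parent, as were 3 of 5 endothelial markers. Of 6 white adipocyte markers, 4 were higher than in QSi5 and 5 than in CBA/CaH, and of 5 macrophage markers 3 and 4 were. Of 6 myoepithelial markers 3 were higher than in QSi5 and 1 than in CBA/CaH, and 2 of 5 B and plasma cell markers were lower than in QSi5 and 1 higher than in CBA/CaH. Of 6 luminal markers 2 were higher than in QSi5, and 1 was higher and 1 lower than in CBA/CaH. The fibroblast marker median was -0.26 to 0.73 in AIL AQ and -0.25 to 0.50 in AIL AC, against -1.71 to -0.84 in lactating QSi5 and -1.43 to -1.27 in lactating CBA/CaH mice, while 0 of 4 secretory markers was called. The part of these markers in the differences was not tested. With quantile normalization, 0 of the 10 genes was called against QSi5, and 2 were higher (Fdps, Sqle) and 2 lower (Hmgcs1, Lss) than in CBA/CaH, with a median over the 10 of 0.06 and -0.03. Over all probe sets, 43.7% of the calls against QSi5 and 45.8% against CBA/CaH were higher in AIL, or 64.7% and 63.7% with array medians set equal.

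Several genes of the other lists were higher in AIL as well. Of 9 other enzymes of the chain, 8 were higher and 0 lower than in QSi5, where 36% of all probe sets were called and 15.7% called higher, and 5 higher and 0 lower than in CBA/CaH, where 32% were called and 14.7% called higher. The counts that follow stand against the same shares. Msmo1 was higher by 1.83 (SE 0.24, adjusted p = 2.52e-05) than in QSi5 and by 1.44 (SE 0.24, adjusted p = 0.000261) than in CBA/CaH, and Tm7sf2 by 0.86 (SE 0.15, adjusted p = 0.000232) and 1.42 (SE 0.15, adjusted p = 1.47e-06). Of 9 sensing genes, 5 and 4 were higher and 0 lower. Insig2 was among these, by 0.67 (SE 0.17, adjusted p = 0.00462) and 0.56 (SE 0.17, adjusted p = 0.0166), while Srebf2 differed by 0.18 (SE 0.13, adjusted p = 0.316) and 0.16 (SE 0.13, adjusted p = 0.365). Of 11 genes of uptake, storage and export, 5 were higher and 1 lower than in QSi5, and 6 higher and 1 lower than in CBA/CaH, among them Apoe, by 0.99 (SE 0.19, adjusted p = 0.000602) and 1.73 (SE 0.19, adjusted p = 2.82e-06). Of 6 isoprenoid genes, 2 were higher and 0 lower than in QSi5, and 2 higher and 1 lower than in CBA/CaH. With the apart-standing arrays dropped, 4 other enzymes, 2 sensing genes and 1 isoprenoid gene were called against QSi5. Quantile normalization left 2 other enzymes and 1 sensing gene called against QSi5.

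The fourth comparison set AIL AQ against AIL AC mice. None of the 10 genes was called by limma (1 at an unadjusted p under 0.05), and 0% of all probe sets were (1289 at an unadjusted p under 0.05). Sqle, the gene with an unadjusted p under 0.05, averaged 9.77 ± 0.48 in AIL AQ and 10.2 ± 0.38 in AIL AC mice (SD, n = 5 each), a difference of -0.47 (SE 0.20, adjusted p = 1.000). Hmgcs1 differed by -0.35 (SE 0.18, adjusted p = 1.000), with overlap. The 95% interval for Fdps was -0.42 to 0.42.

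Across the 6 groups the genes fell into a few orders. Values are means ± SD, with n = 5 for AIL and pregnant groups and n = 3 for lactating QSi5 and CBA/CaH. Fdps averaged 10.2 ± 0.35 in AIL AQ, 10.2 ± 0.38 in AIL AC, 9.43 ± 0.095 in lactating QSi5, 9.29 ± 0.49 in lactating CBA/CaH, 7.61 ± 1.06 in pregnant QSi5 and 7.73 ± 0.40 in pregnant CBA/CaH mice. From high to low, gaps without overlap lay between AIL AQ and lactating QSi5, and between lactating and pregnant CBA/CaH mice. Fdft1 averaged 9.29 ± 0.36 in AIL AQ, 9.35 ± 0.24 in AIL AC, 9.04 ± 0.043 in lactating QSi5, 9.21 ± 0.20 in lactating CBA/CaH, 8.02 ± 0.86 in pregnant QSi5 and 8.16 ± 0.43 in pregnant CBA/CaH mice. Lactating QSi5 (highest 9.08) lay just below lactating CBA/CaH (lowest 9.10), a strain difference that was not called. It lay above the pregnant groups without overlap, and AIL overlapped lactating CBA/CaH. Insig1 averaged 9.52 ± 0.53 in AIL AQ, 9.64 ± 0.35 in AIL AC, 9.21 ± 0.057 in lactating QSi5, 8.88 ± 0.33 in lactating CBA/CaH, 7.89 ± 0.64 in pregnant QSi5 and 8.20 ± 1.14 in pregnant CBA/CaH mice. Lactating QSi5 (lowest 9.146) lay barely above lactating CBA/CaH (highest 9.143), a strain difference that was not called. Lactating CBA/CaH overlapped pregnant CBA/CaH, which held the high array 5.

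Sqle and Cyp51 were highest in AIL. Sqle averaged 9.77 ± 0.48 in AIL AQ, 10.2 ± 0.38 in AIL AC, 9.26 ± 0.16 in lactating QSi5, 9.12 ± 0.24 in lactating CBA/CaH, 8.54 ± 0.76 in pregnant QSi5 and 8.50 ± 0.27 in pregnant CBA/CaH mice. Cyp51 averaged 7.98 ± 0.36 in AIL AQ, 8.19 ± 0.23 in AIL AC, 7.67 ± 0.17 in lactating QSi5, 7.55 ± 0.10 in lactating CBA/CaH, 7.31 ± 0.44 in pregnant QSi5 and 7.28 ± 0.18 in pregnant CBA/CaH mice. Each neighbour in these orders overlapped the next. Lss was highest in lactating parents, with 7.81 ± 0.37 in AIL AQ, 7.88 ± 0.52 in AIL AC, 8.02 ± 0.03 in lactating QSi5, 8.19 ± 0.39 in lactating CBA/CaH, 7.00 ± 0.23 in pregnant QSi5 and 7.39 ± 0.42 in pregnant CBA/CaH mice. Here too each neighbour overlapped the next.

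Hmgcs1 ran the other way, with 8.92 ± 0.32 in AIL AQ, 9.27 ± 0.31 in AIL AC, 8.85 ± 0.30 in lactating QSi5, 9.80 ± 0.32 in lactating CBA/CaH, 10.1 ± 0.46 in pregnant QSi5 and 10.8 ± 0.53 in pregnant CBA/CaH mice. Pregnant groups stood at the top, lactating CBA/CaH next, and each neighbour overlapped the next. Idi1, Sc5d and Dhcr7 had orders of their own. Idi1 averaged 8.90 ± 0.43 in AIL AQ, 8.97 ± 0.37 in AIL AC, 8.48 ± 0.28 in lactating QSi5, 9.00 ± 0.12 in lactating CBA/CaH, 8.90 ± 0.27 in pregnant QSi5 and 8.95 ± 0.24 in pregnant CBA/CaH mice. Sc5d averaged 7.51 ± 0.40 in AIL AQ, 7.86 ± 0.62 in AIL AC, 6.93 ± 0.099 in lactating QSi5, 7.26 ± 0.22 in lactating CBA/CaH, 7.28 ± 0.29 in pregnant QSi5 and 7.43 ± 0.33 in pregnant CBA/CaH mice. Dhcr7 averaged 8.14 ± 0.68 in AIL AQ, 8.17 ± 0.24 in AIL AC, 8.25 ± 0.28 in lactating QSi5, 8.38 ± 0.29 in lactating CBA/CaH, 8.14 ± 0.26 in pregnant QSi5 and 8.05 ± 0.34 in pregnant CBA/CaH mice. For these 3 genes each neighbour in the order overlapped the next, and the group means of Dhcr7 lay closest together.

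Over the 26 arrays, each gene was set against the mean of the other 9. Pearson's r was 0.88 for Cyp51, 0.84 for Sqle, 0.83 for Fdft1, 0.76 for Fdps, 0.75 for Lss, 0.71 for Insig1, 0.54 for Sc5d, 0.47 for Idi1 and 0.42 for Dhcr7, and -0.54 for Hmgcs1. These are descriptions, since the arrays share groups. Of 12894 other genes with a mean level of at least 5, the 6 whose pattern was most like the mean of the 10 were Nsdhl (r = 0.906), Kyat3 (0.887), Otop1 (0.878), Acly (0.872), Lactb2 (0.855) and Echdc1 (0.854). Nsdhl is itself an enzyme of the chain, and Acly supplies acetyl-CoA from citrate. No test was made of these likenesses.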

How the data were processed

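Gland RNA of each sample was labelled and read on its own Affymetrix mouse expression array, 26 in all. The authors deposited 1 table of log2 expression values, computed with RMA per the submitters' processing notes. The version and whether all arrays were processed together are not given in the sources used here, and no scanner file was used here. The table has 45101 probe sets, from which 64 control probe sets were dropped. The array annotation gave 34945 probe sets 1 symbol, 932 several and 9160 none.

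Differences were tested with limma 3.58.1 (lmFit and eBayes, R 4.3.3), with Benjamini-Hochberg adjustment over all 45037 probe sets and a call at an adjusted p under 0.05. The 16 arrays of QSi5 and CBA/CaH gave the stage, strain and interaction tests, and the 16 lactation arrays gave the AIL tests. The fit was tested on simulated data. The 10 genes and all lists were chosen with earlier results of these data known. All 10 were named, with at most 3 called and 2 uncalled genes of each other list, Srebf2 and Insig2, and the 6 genes of most like pattern. Not every gene of these lists is reported here. Promoters came from RefSeq (GRCm38.p6). The files name no genome build, so no array feature was placed on the genome.

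Alternatives were quantile normalization, equal array medians, a mean level of at least 5, trend and robust variance, all 26 arrays or only the compared groups in the fit, the mean of a gene's probe sets, the Gapdh 3′ minus 5′ value as a covariate, replicate numbers as a block, each array left out in turn, and the arrays that stood apart left out. A factor for the AIL arrays 1 to 3 against 4 and 5 was also tried. Leaving out the pregnancy QSi5 array 4 with the pregnancy CBA/CaH array 5 was added after the data were seen.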

Additional observations from a re-analysis of the deposited data

Results flagged for a closer look

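In 40 groups of gene and condition with 5 arrays each, 6 held an array far from the rest, by the gap to its nearest neighbour over the whole range of the group. Chance flags about 1 in 20 groups, but the genes were read on the same arrays, so the 6 flags are not independent of each other. On the pregnancy QSi5 array 4, Fdps read 5.77 (next lowest 7.64), Fdft1 6.53 (8.17) and Sqle 7.20 (8.72). This array also had the Gapdh 3′ minus 5′ value of 6.50, and its part in these low readings was not tested. On the pregnancy CBA/CaH array 5, Lss read 8.12 (next highest 7.35), and brown fat markers were highest there. Sc5d read 8.22 on the AIL AQ array 4 (next highest 7.41) and 7.78 on the pregnancy QSi5 array 5 (7.23).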

How the results depend on the processing

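Strain, interaction and AIL AQ against AIL AC had 0 of the 10 genes called under every alternative run with limma. In CBA/CaH, 4 genes were called between the stages, and 7 with quantile normalization, without the arrays that stood apart, or without the pregnancy QSi5 array 4 and CBA/CaH array 5 (1 to 5 when single arrays were left out, the lowest without the lactation CBA/CaH array 2). In QSi5, 5 were called, and 8 with the Gapdh covariate (3 to 6 when single arrays were left out, the lowest without the lactation QSi5 array 1 or 2). Against CBA/CaH, 5 were called in AIL mice, 3 with all 26 arrays in the fit or the mean of probe sets, and 0 with the Gapdh covariate (3 to 6 when single arrays were left out, the lowest without the CBA/CaH array 1 or 3). Against QSi5, 4 were called in AIL mice. With quantile normalization or the Gapdh covariate the count was 0. All 26 arrays in the fit gave 1, a replicate block 2 and equal array medians 5. The factor for the AIL arrays 1 to 3 against 4 and 5 added calls of Idi1 (0.50, adjusted p = 0.0371) and Fdft1 (0.33, adjusted p = 0.0200) by limma. With single arrays left out the count was 1 to 5 (2 without the QSi5 array 1 and 1 without the QSi5 array 2). The direction turned for Hmgcs1 against CBA/CaH with the mean of probe sets (0.12) and for Fdps against CBA/CaH (-0.024) and QSi5 (-0.14) with the Gapdh covariate. The cause of these shifts was not tested. The labels give replicate numbers no shared source, and in no pair of groups did all same-numbered arrays correlate over 0.1. The nearest were AIL AQ and AIL AC, at 0.0074 to 0.32 with 4 of 5 pairs over 0.1 (6 of 10 arrays nearest to their own number). In the other pairs of groups the correlation was -0.43 to 0.12, although all 6 of the matched CBA/CaH arrays were nearest to their own number across the stages. The block left 5 and 4 calls between the stages in QSi5 and CBA/CaH and 5 in AIL against CBA/CaH, ended those of Cyp51 and Sc5d in AIL against QSi5, and gave 7 uptake genes in QSi5 (4 without it) and 4 other enzymes in AIL against QSi5 (8). Over all probe sets, the Gapdh covariate left 557 calls of AIL against CBA/CaH (14425 without it) and 837 against QSi5 (16220), and gave 928 between the strains at pregnancy (492). AIL AQ against AIL AC had 3 calls without the AIL AQ array 4. Signal over background could not be checked, as only RMA values were used.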
